A study of Mus musculus with 12 samples.

Results

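The 6 genes described here are the mouse receptors for the constant part of IgG and their shared adaptor: Fcgr1, Fcgr2b, Fcgr3, Fcgr4, Fcer1g and Fcgrt. They were chosen by name, all 6 were found among the 46603 genes of the count table, and all 6 passed the filter on low counts in every comparison. Their RNA was followed in ileum and in synovium of TNFdARE mice, which carry a Tnf allele without the AU-rich element that limits Tnf mRNA, and of their WT littermates. Each of the 4 groups (TNFdARE ileum, WT ileum, TNFdARE synovium and WT synovium) had 3 biological replicates, which made 12 bulk libraries of poly-A RNA. TNFdARE mice overproduce TNF in many cell types and develop ileitis and arthritis. Age and sex are not in the labels, and nothing there ties an ileum library to the synovium of the same mouse.

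Fc gamma receptors let myeloid cells and some lymphocytes sense IgG bound to antigen. Fcgr1, Fcgr3 and Fcgr4 are activating receptors whose surface expression and signalling rely on the common gamma chain encoded by Fcer1g, which carries the ITAM, a tyrosine motif that recruits the kinase Syk. Fcgr2b is the inhibitory receptor and carries an ITIM, which recruits the lipid phosphatase encoded by Inpp5d. Fcgrt encodes the heavy chain of FcRn, which pairs with beta 2 microglobulin, rescues IgG and albumin from lysosomal breakdown and lies outside this signalling pair. In mouse models of antibody-driven arthritis, activating receptors and Fcer1g are known to promote joint inflammation and Fcgr2b to restrain it.

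In GRCm38, with positions from the GENCODE annotation, Fcgr2b (chr1:170958617-170976547), Fcgr4 (chr1:171018920-171029761), Fcgr3 (chr1:171051174-171064935) and Fcer1g (chr1:171229572-171234365) are neighbours on chromosome 1. Fcgr4 is on the plus strand and the others are on the minus strand. Fcgr1 (chr3:96282909-96293969) and Fcgrt (chr7:45092990-45103851) are also on the minus strand. Promoter windows of RefSeq on GRCm38.p6, from 250 bases before to 50 after a start, were searched on both strands for the core bound by PU.1, the myeloid lineage factor, written GAGGAA. The stretches that hold a match follow, with 9 bases on either side and the match in capitals, to show the sequence around each match. All are written 5′ to 3′ on the strand of the gene, so that the PU.1 core reads as its reverse complement.
Fcgr1, PU.1 core: gcaacttccTTCCTCttttctaat
Fcgr3, PU.1 core: tccatttccTTCCTCtttttgtag
Fcgr4, PU.1 core: gctatttacTTCCTCtcttctagt
These lie at chr3:96294010-96294033, chr1:171059395-171059418 and chr1:171018895-171018918, in that order. The 3 PU.1 matches begin 55, 6 and 22 bases before a start of Fcgr1, Fcgr3 and Fcgr4, and the start of Fcgr3 is the inner one of the 2 that the promoter table lists. No match stood in the windows of Fcgr2b, Fcer1g and Fcgrt. Over 32851 promoter windows, 28.3% held the PU.1 core, so it is not rare by its letters, and a match is not evidence of binding.

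Library totals lay between 14267834 and 16224402 counts. Tnf, the altered gene, had 1303, 244 and 674 counts in TNFdARE ileum against 38, 19 and 23 in WT ileum, and 641, 565 and 488 counts in TNFdARE synovium against 31, 31 and 29 in WT synovium. Tissue markers followed the labels: 8 epithelial genes summed to 8134 to 13241 CPM, counts scaled to library size, in ileum and to 30.3 to 41.8 CPM in synovium, while 10 synovial fibroblast genes summed to 43350 to 91394 CPM in synovium and 940 to 1664 CPM in ileum. TNFdARE ileum replicate 1 held the highest and replicate 2 the lowest level of most receptors in its group. Levels below are RPKM, which are CPM on TMM-scaled library totals divided by the exonic kilobases of the gene, and fold changes are log2, TNFdARE over WT, with their standard error (SE). Adjusted p-values come from edgeR's quasi-likelihood test over all genes of a comparison, with calls under 0.05. In bulk tissue a change in the number of cells that hold a transcript and a change of transcript per cell cannot be told apart.

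**Figure D1:**
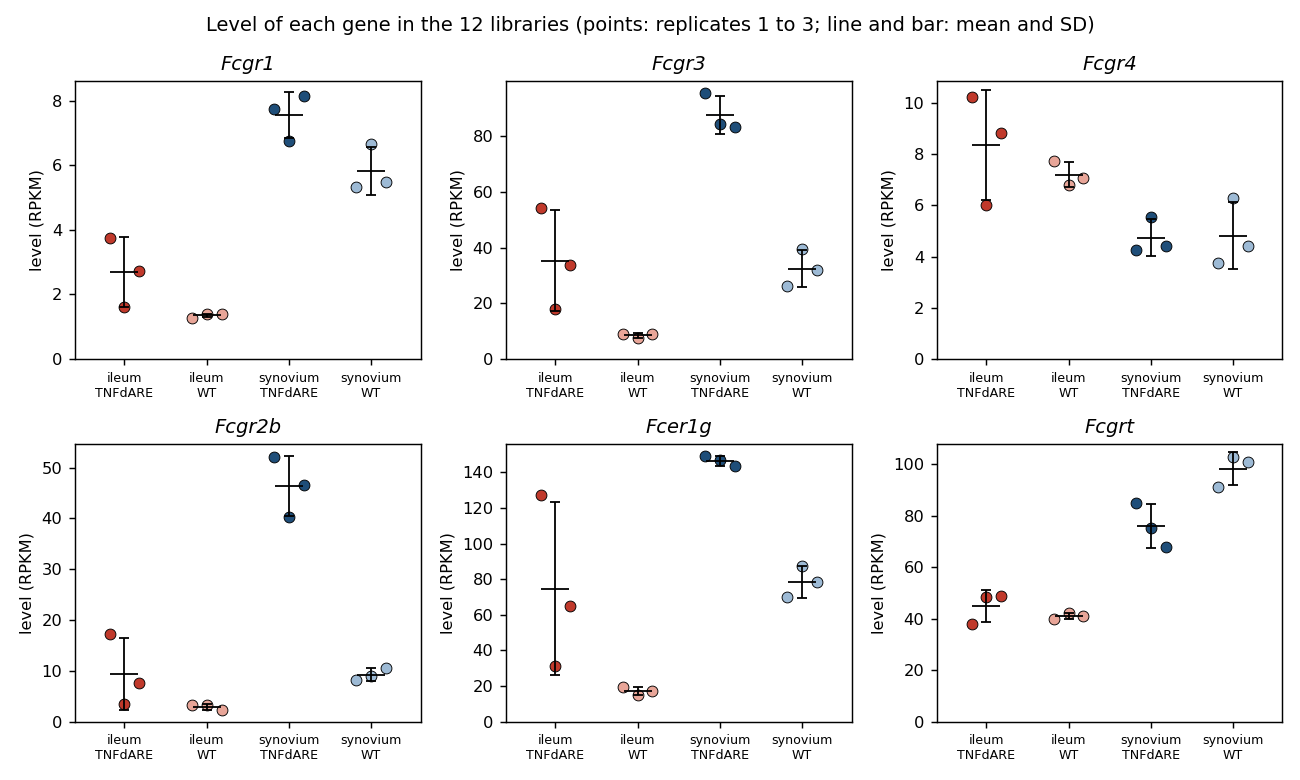
Level in RPKM (vertical axis, from 0) of each gene in the 12 libraries, by tissue and genotype; points are replicates and the line and bar are the mean and SD of 3. Fcgr2b reached 40.3 to 52.1 RPKM in TNFdARE synovium and at most 17.3 RPKM in any library of the other groups, while Fcgr4 overlapped between genotypes in both tissues.

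Fcgr3, Fcgr2b and Fcer1g rose in TNFdARE synovium, by 2.75, 5.08 and 1.90 times, while Fcgrt fell to 0.788 times its WT level and Fcgr1 and Fcgr4 did not pass the test. That made 3 of 6 genes higher, where 13.1% of the 15599 genes tested in synovium were higher, and 1 of 6 lower, where 10.7% were lower. In 5 of 6 genes, all but Fcgr4, the groups did not overlap, which held for 43.9% of all genes tested. In the ileum only Fcgr3 passed, 4.13 times higher in TNFdARE, where 4.12% of 15462 genes were higher. Fcgr1, Fcgr2b and Fcer1g were 2.00, 3.22 and 4.37 times their WT level there and missed the threshold. No ileum call reported here survived the loss of any single WT library, and a fit without WT ileum replicate 1, 2 or 3 called 0 genes of all. With Fcgr3 they made 4 of 6 genes whose ileum groups did not overlap, a property of 37.3% of all genes tested.

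Among the activating receptors, Fcgr3, the low-affinity receptor for immune complexes, was the most abundant of the 4 Fc gamma receptors per length in every library. Its rank over Fcgr2b rests on the exonic lengths used. In counts Fcgr2b (5031, 4049 and 4655) exceeded Fcgr3 (2761, 2542 and 2491) in TNFdARE synovium, and it did so in some libraries of each other group. Fcgr3 had 54.1, 18 and 33.6 RPKM in TNFdARE ileum, against 9.02, 7.57 and 9.12 RPKM in WT ileum. It had 95.3, 84.3 and 83.1 RPKM in TNFdARE synovium, against 26.1, 39.4 and 31.8 RPKM in WT synovium. The groups were separate in both tissues, with a wide spread among TNFdARE ileum libraries and a narrow one among TNFdARE synovium libraries. The fold change was 2.04 ± 0.40 in the ileum (SE, n = 3 each, adjusted p = 0.0475 by edgeR) and 1.46 ± 0.15 in the synovium (n = 3 each, adjusted p = 0.00136 by edgeR). The ileum call did not survive the loss of any library except TNFdARE replicate 2, with adjusted p between 0.0515 and 0.176 by edgeR in those 5 fits.

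Fcgr1, the high-affinity receptor that binds monomeric IgG, was the scarcest of the 4 receptors per length in the ileum. It had 3.75, 1.60 and 2.71 RPKM in TNFdARE ileum and 1.28, 1.38 and 1.39 RPKM in WT ileum. In the synovium it had 7.73, 6.76 and 8.14 RPKM in TNFdARE and 5.32, 6.66 and 5.47 RPKM in WT. The groups came close without overlapping in both tissues, with TNFdARE replicate 2 next to the highest WT library each time. The fold change was 1.00 ± 0.31 in the ileum (adjusted p = 0.0927) and 0.40 ± 0.13 in the synovium (adjusted p = 0.0602 by edgeR).

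Fcgr4, which binds IgG2a or IgG2c and IgG2b and is known from mouse monocytes, macrophages and neutrophils, passed the test in neither tissue. It had 10.2, 6.00 and 8.84 RPKM in TNFdARE ileum against 7.72, 6.80 and 7.06 RPKM in WT ileum, and 4.25, 5.55 and 4.43 RPKM in TNFdARE synovium against 3.75, 6.27 and 4.41 RPKM in WT synovium. TNFdARE libraries stood on both sides of WT libraries in each tissue. The fold change was 0.22 ± 0.21 in the ileum (adjusted p = 0.510) and 0.01 ± 0.23 in the synovium (adjusted p = 0.986 by edgeR), and its sign turned under other settings in both tissues, as in the fit of 4 groups for synovium (-0.022).

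Fcer1g, the adaptor, was more abundant per length than any of the 4 receptors in every library. This too rests on the lengths, since in TNFdARE synovium its counts (2174, 2228 and 2163) were below those of Fcgr2b and Fcgr3. Fcer1g had 149, 147 and 143 RPKM in TNFdARE synovium, against 69.7, 87.6 and 78.3 RPKM in WT synovium. It had 127, 31.5 and 65.2 RPKM in TNFdARE ileum, against 19.3, 14.8 and 17.3 RPKM in WT ileum. TNFdARE libraries were above WT libraries in both tissues, and in the ileum replicate 1 was far above replicate 2. The fold change was 0.93 ± 0.09 in the synovium (adjusted p = 0.000998) and 2.13 ± 0.51 in the ileum (adjusted p = 0.0618 by edgeR). The synovial call was lost in the fit of 4 groups (adjusted p = 0.104 by edgeR), which estimates the spread over both tissues.

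Fcgr2b, the inhibitory receptor, had the largest synovial change of the 6 genes, and its p ranked 20 of 15599 genes. It had 52.1, 40.3 and 46.6 RPKM in TNFdARE synovium, against 8.18, 9.05 and 10.6 RPKM in WT synovium. Every TNFdARE library was well above every WT library. In the ileum it had 17.3, 3.48 and 7.58 RPKM in TNFdARE and 3.30, 3.30 and 2.24 RPKM in WT, so TNFdARE replicate 2 was nearly at the WT level. The fold change was 2.35 ± 0.13 in the synovium (adjusted p = 0.000216) and 1.69 ± 0.58 in the ileum (adjusted p = 0.121 by edgeR). Without TNFdARE replicate 1 the ileum fold change was 0.92. Fcgr3 and Fcgr2b have similar extracellular domains, and reads of 100 bases could be split between them: 2.54% of the 100-base windows of Fcgr3 exons occurred unchanged in Fcgr2b, and 14.8% with up to 2 mismatches.

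**Figure D2:**
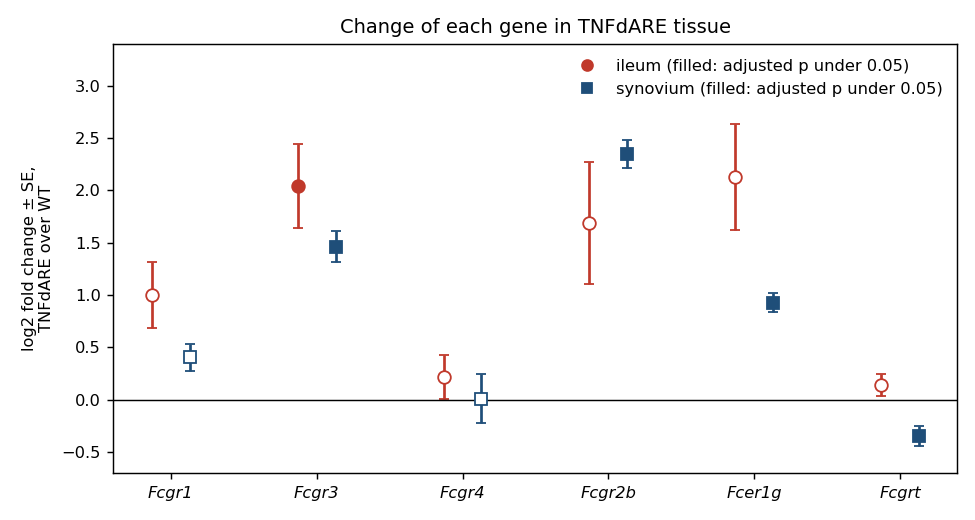
Log2 fold change of TNFdARE over WT (vertical axis) with its SE for each gene in ileum (circles) and synovium (squares), from edgeR on 3 against 3 libraries; filled marks have an adjusted p under 0.05. Fcgr2b led in synovium at 2.35, Fcer1g and Fcgr3 led in ileum at 2.13 and 2.04 with wide errors, and Fcgr4 lay near 0 in synovium.

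Fcgrt, the FcRn heavy chain, was the sole gene of the 6 to fall. It had 84.8, 75.1 and 67.7 RPKM in TNFdARE synovium, against 91.0, 103 and 101 RPKM in WT synovium, with no overlap. In the ileum it had 37.8, 48.6 and 48.8 RPKM in TNFdARE and 39.7, 42.2 and 41.0 RPKM in WT, where TNFdARE replicate 1 was the lowest library of all 6. The fold change was -0.34 ± 0.10 in the synovium (adjusted p = 0.0413) and 0.14 ± 0.11 in the ileum (adjusted p = 0.410 by edgeR). The synovial call was lost without TNFdARE replicate 2 or 3 or WT replicate 2 or 3, with adjusted p between 0.0948 and 0.125 by edgeR. B2m, which encodes the light chain of FcRn and of MHC class I, moved the other way in synovium, with a fold change of 0.61 ± 0.08 (adjusted p = 0.00309 by edgeR).

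Whether the TNFdARE effect differed between tissues was tested as an interaction, synovium minus ileum, over all 12 libraries. None of the 6 genes passed with edgeR or with DESeq2, where 12.1% of 16964 genes passed with edgeR, and 2 of 6 had an unadjusted p under 0.05. The nearest were Fcgrt, with a difference of -0.51 ± 0.15 (adjusted p = 0.0550), and Fcer1g, with -1.23 ± 0.52 (adjusted p = 0.148 by edgeR). For Fcgr2b the difference was 0.64 ± 0.61 (adjusted p = 0.537 by edgeR). Without TNFdARE ileum replicate 1 it was 1.49 and passed (adjusted p = 0.0334), and so did Fcgrt (adjusted p = 0.0239). Without TNFdARE ileum replicate 2, Fcgr1 (-0.79, adjusted p = 0.0322) and Fcer1g (-1.49, adjusted p = 0.00746 by edgeR) passed instead. Fcgrt also passed without TNFdARE synovium replicate 1 (adjusted p = 0.0437) and with library totals (adjusted p = 0.0387 by edgeR).

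The proportions between the receptors within a library do not depend on how libraries are scaled. The share of each receptor in the summed RPKM of Fcgr1, Fcgr2b, Fcgr3 and Fcgr4 was therefore followed. Fcgr2b made up 32.7%, 29.4% and 32.7% of the sum in TNFdARE synovium, against 18.9%, 14.8% and 20.3% in WT synovium. Its ileum shares overlapped, at 15.5% ± 4.3 in TNFdARE and 14.7% ± 3.1 in WT (SD, n = 3 each). In the ileum the shares of Fcgr4, Fcgr3 and Fcgr1 did not overlap between genotypes. Fcgr4 held 12%, 20.6% and 16.7% in TNFdARE ileum against 36.2%, 35.7% and 35.6% in WT ileum, and Fcgr3 held 63.0% ± 1.0 in TNFdARE ileum against 42.7% ± 3.2 in WT ileum (SD, n = 3 each). Fcgr1 held 5.02% ± 0.57 in TNFdARE ileum against 6.76% ± 0.65 in WT ileum (SD, n = 3 each). In the synovium Fcgr3 kept the largest share in both genotypes, 59.9% ± 1.6 in TNFdARE and 61.7% ± 2.1 in WT, and these overlapped. Fcgr1 held 5.17% in TNFdARE synovium against 11.2% in WT synovium, and Fcgr4 held 3.28% in TNFdARE synovium against 9.10% in WT synovium, with no overlap. Of 8 shares tested, 6 did not overlap between genotypes and had p = 0.1 in an exact two-sided permutation test, the smallest p that 3 against 3 libraries allow, and 0.133 after adjustment over the 8. Shares depend on the exonic lengths used (5790 bases for Fcgr2b, 1736 for Fcgr3), which count all annotated transcripts of a gene, and they sum to the whole, so that a rise of some lowers the rest.

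**Figure D3:**
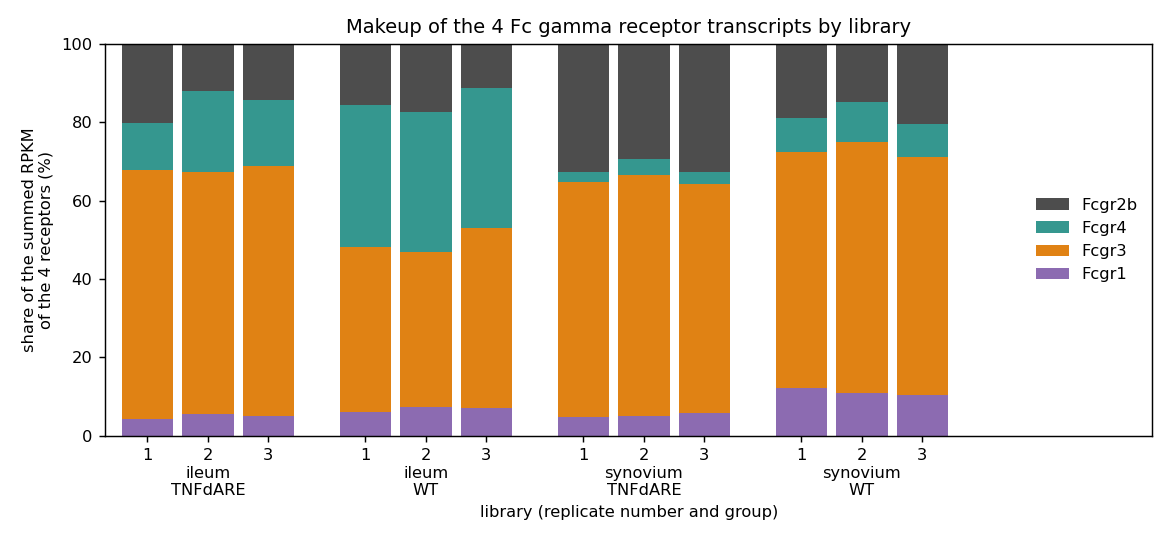
Share of each Fc gamma receptor in the summed RPKM of the 4 receptors (vertical axis, percent), with 1 bar per library, by group and replicate number. Fcgr2b takes 29.4% to 32.7% in TNFdARE synovium against 14.8% to 20.3% in WT synovium, and Fcgr4 takes 12% to 20.6% in TNFdARE ileum against 35.6% to 36.2% in WT ileum.

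Ratios of counts within a library need no lengths. Of the 22 ratios computed, 18 did not overlap between genotypes, each with p = 0.1 in the exact two-sided permutation test (adjusted p = 0.122 over the 22). All have Fcgr2b or, in the next paragraph, Csf1r as denominator, so they are not independent results. The share of all genes whose ratio to Fcgr2b or to Csf1r would separate by genotype was not computed. Counts of ratios without overlap, the 18 of 22 included, are therefore not results about the receptor genes. In synovium all 5 ratios of a gene to Fcgr2b were lower in TNFdARE without overlap. Their direction follows from the fits above, where Fcgr2b had the largest synovial fold change of the members. There were 0.549, 0.628 and 0.535 counts of the activating Fcgr3 per count of Fcgr2b in TNFdARE synovium, against 0.956, 1.30 and 0.897 in WT synovium, a log2 difference of -0.87. For Fcer1g these were 0.432, 0.550 and 0.465 in TNFdARE synovium, against 1.29, 1.46 and 1.11 in WT synovium, a difference of -1.41. In the ileum 1 of 5 ratios to Fcgr2b did not overlap, that of Fcgr4, with 0.129, 0.375 and 0.253 in TNFdARE against 0.508, 0.448 and 0.686 in WT. The ileum ratio of Fcgr3 to Fcgr2b was 0.939, 1.55 and 1.33 in TNFdARE and 0.819, 0.688 and 1.22 in WT, with p = 0.2 in the exact permutation test. The difference of these ratios between tissues was not tested.

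Csf1r, the receptor of monocytes and macrophages for their growth factor, was used as a denominator that marks those cells. It rose by 2.57 ± 0.39 in TNFdARE ileum (adjusted p = 0.0404) and by 1.14 ± 0.08 in TNFdARE synovium (adjusted p = 0.000406 by edgeR). Against Csf1r, all 6 genes were lower without overlap in TNFdARE ileum. The median fold change of all genes tested in ileum was -0.002, far below that of Csf1r. How many other genes would separate against Csf1r was not computed, so this count is not a result about the 6 genes. None of the 6 rose there as much as Csf1r, the nearest being Fcer1g at 2.13. The direction of each ratio to Csf1r, in either tissue, thus follows from the fold changes already given. This includes the ileum ratios of Fcgrt and Fcgr4, which did not pass the test there. Fcgr2b had 0.141, 0.0816 and 0.0915 counts per count of Csf1r in TNFdARE ileum, against 0.222, 0.261 and 0.157 in WT ileum. In the synovium Fcgr2b stood above WT, with 0.357, 0.290 and 0.324 in TNFdARE against 0.130, 0.132 and 0.158 in WT, a log2 difference of 1.21, and so did Fcgr3, with 0.196, 0.182 and 0.174 in TNFdARE against 0.124, 0.173 and 0.142 in WT, a difference of 0.34 whose nearest libraries were 0.174 in TNFdARE and 0.173 in WT. Fcgr1, Fcgr4, Fcer1g and Fcgrt were lower relative to Csf1r in TNFdARE synovium, and Fcer1g least, by -0.20. Each of these ratios had p = 0.1 in the exact permutation test.

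**Figure D4:**
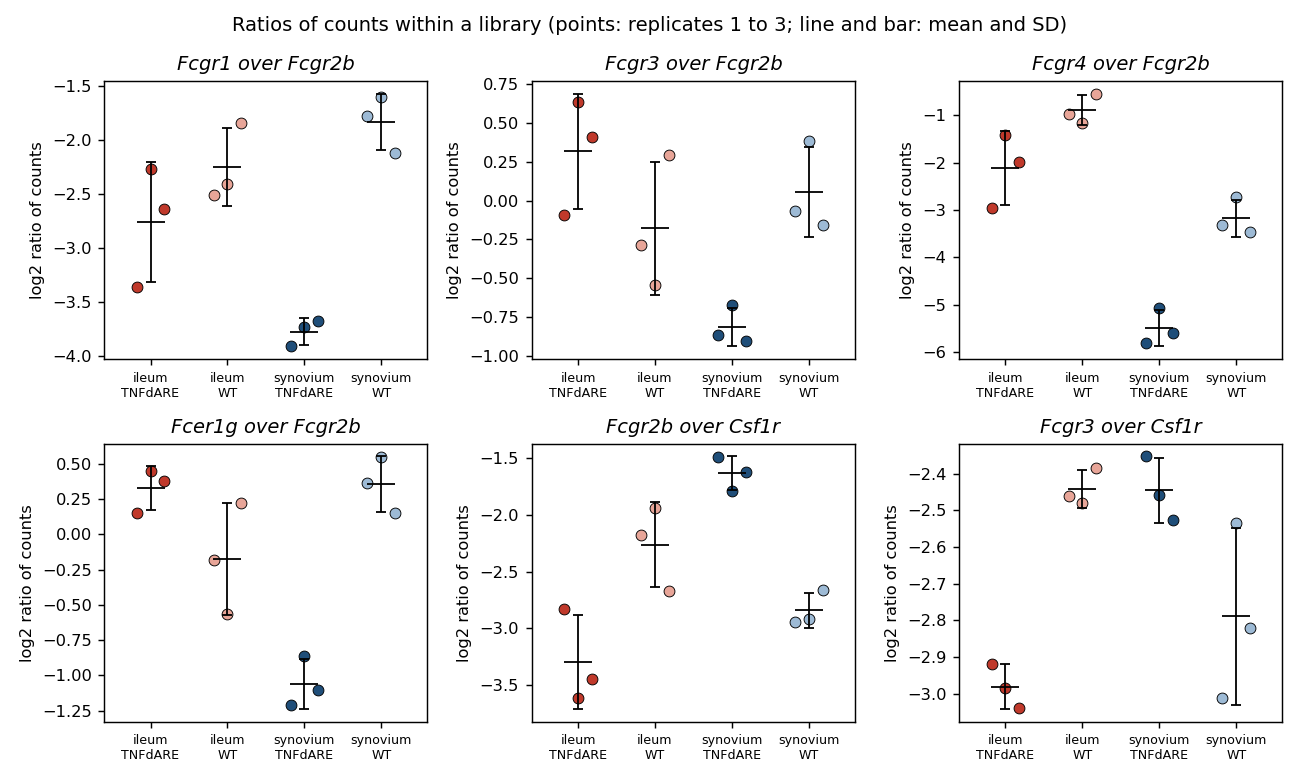
Log2 ratio of counts of gene pairs within a library (vertical axis) by tissue and genotype; points are replicates and the line and bar are the mean and SD of 3. All 4 ratios to Fcgr2b are lower in TNFdARE than in WT synovium, and Fcgr2b over Csf1r lies below WT in TNFdARE ileum but above WT in TNFdARE synovium.

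Other cell types moved with genotype, and their part in the receptor values was not tested. For the counts of list genes here and below, 879 of 15462 genes tested were called in ileum, 637 of them (4.12% of those tested) higher. In synovium 13.1% of genes tested were higher and 10.7% lower. Of 16 monocyte and macrophage genes, 7 rose in TNFdARE ileum and 12 in TNFdARE synovium. These 16 genes summed to 1596 to 5912 CPM in TNFdARE ileum against 558 to 693 CPM in WT ileum, and to 6563 to 8373 CPM in TNFdARE synovium against 2343 to 2904 CPM in WT synovium. C1qc, a complement subunit made by macrophages, rose by 1.98 ± 0.30 in ileum (adjusted p = 0.0404), and Ccr2, the chemokine receptor of inflammatory monocytes, by 1.90 ± 0.08 in synovium (adjusted p = 6.5e-05 by edgeR). Of the neutrophil genes, 5 of 7 tested rose in TNFdARE ileum, with sums of 163 to 597 CPM against 12.1 to 19.7 CPM in WT ileum. In synovium none of 10 passed with edgeR or DESeq2 or had an unadjusted p under 0.05, with 1705 to 5405 CPM in TNFdARE and 2183 to 5065 CPM in WT.

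B cells, which carry Fcgr2b, had none of 6 marker genes called in ileum by edgeR (6 at an unadjusted p under 0.05 and 6 by DESeq2), with 18.4 to 228 CPM in TNFdARE against 12 to 17.4 CPM in WT. In synovium none of their 7 genes was called by edgeR (3 at an unadjusted p under 0.05 and 4 by DESeq2), and the sum was lower, 79 to 161 CPM in TNFdARE against 166 to 343 CPM in WT. Mast cell genes, from cells that also carry Fcer1g, had 1 of 7 lower in synovium, with 68.6 to 109 CPM in TNFdARE against 132 to 152 CPM in WT, and with Mcpt1 at 0 counts in all 6 synovium libraries. NK cell genes, from cells known for Fcgr3, had 4 of 7 lower in synovium, with 8.21 to 15.6 CPM in TNFdARE against 22.2 to 23.5 CPM in WT. Endothelial genes, from vessels that express Fcgrt and in some organs Fcgr2b, had 5 of 8 lower in synovium, with 678 to 749 CPM in TNFdARE against 893 to 972 CPM in WT. Of dendritic cell genes, from cells that carry Fc gamma receptors, 5 of 8 rose in TNFdARE ileum, with 150 to 359 CPM against 43.1 to 54.5 CPM in WT ileum, and 2 of 7 rose in TNFdARE synovium, with 118 to 139 CPM against 72.1 to 77.8 CPM in WT synovium. Synovial fibroblast genes had 1 of 10 higher and 3 lower in synovium, with 43350 to 47831 CPM in TNFdARE against 53606 to 91394 CPM in WT. Epithelial genes had 1 of 8 lower in ileum, with 8134 to 11154 CPM in TNFdARE against 12501 to 13241 CPM in WT. Skeletal muscle genes differed as well, with 1 of 9 called lower in synovium by edgeR. Of these 9, 8 had an unadjusted p under 0.05 by edgeR and 7 were called by DESeq2. Their sums were 1643 to 6830 CPM in TNFdARE synovium against 9302 to 18988 CPM in WT synovium.

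The level also differed by tissue. All 6 genes were called between synovium and ileum in both genotypes, in a comparison where 66.7% of genes passed in TNFdARE (31.6% higher and 35% lower in synovium) and 74.2% in WT (38.2% higher and 36% lower). Of the 6, 5 were higher in synovium. The exception was Fcgr4, lower in synovium by -0.82 ± 0.23 in TNFdARE (adjusted p = 0.00879) and by -0.58 ± 0.23 in WT (adjusted p = 0.0415 by edgeR). The TNFdARE value of Fcgr4 lost its call without TNFdARE ileum replicate 1 (adjusted p = 0.0522 by edgeR). The WT value of Fcgr4 lost its call with the replicate block, with library totals and without any of 5 of the 6 WT libraries (adjusted p up to 0.131 by edgeR). Fcgr2b was higher in synovium by 2.29 ± 0.44 in TNFdARE and by 1.66 ± 0.45 in WT, Fcgr3 by 1.31 ± 0.31 and 1.92 ± 0.33, and Fcgr1 by 1.48 ± 0.24 and 2.10 ± 0.25. Fcer1g was higher by 0.97 ± 0.36 in TNFdARE (adjusted p = 0.0356, and up to 0.102 without single libraries) and by 2.2 ± 0.4 in WT, and Fcgrt by 0.75 ± 0.11 in TNFdARE and 1.26 ± 0.11 in WT. In TNFdARE synovium the order of mean levels was Fcer1g (146 ± 3), Fcgr3 (87.6 ± 6.7), Fcgrt (75.9 ± 8.5), Fcgr2b (46.3 ± 5.9), Fcgr1 (7.55 ± 0.71) and Fcgr4 (4.74 ± 0.71 RPKM, SD, n = 3), where only Fcgr3 and Fcgrt lay within each other's range. In WT synovium Fcgrt led at 98.2 ± 6.3, ahead of Fcer1g (78.6 ± 8.9), Fcgr3 (32.4 ± 6.7), Fcgr2b (9.28 ± 1.24), Fcgr1 (5.82 ± 0.73) and Fcgr4 (4.81 ± 1.31 RPKM, SD, n = 3), and Fcgr1 and Fcgr4 overlapped. In TNFdARE ileum the levels of Fcer1g (74.6 ± 48.5), Fcgrt (45.0 ± 6.3) and Fcgr3 (35.2 ± 18.1) overlapped. Fcgr2b (9.44 ± 7.08) overlapped both Fcgr4 (8.35 ± 2.15) and Fcgr1 (2.69 ± 1.07 RPKM, SD, n = 3), and Fcgr4 lay above Fcgr1. In WT ileum the order was Fcgrt (41.0 ± 1.2), Fcer1g (17.1 ± 2.2), Fcgr3 (8.57 ± 0.87), Fcgr4 (7.19 ± 0.48), Fcgr2b (2.95 ± 0.62) and Fcgr1 (1.35 ± 0.06 RPKM, SD, n = 3), where Fcgr3 and Fcgr4 overlapped.

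Below the receptors, genes of ITAM signalling rose in both tissues, 5 of 14 in TNFdARE ileum and 9 of 14 in TNFdARE synovium. None was called lower. Of all genes tested, 4.12% were higher in ileum and 13.1% in synovium. The median fold change of the list was 1.39 in ileum and 0.75 in synovium, where the median over all genes tested was 0.00 in both. The Src-family kinase Fgr rose by 3.01 ± 0.49 and 1.46 ± 0.19, and the kinase Btk by 2.48 ± 0.38 and 0.75 ± 0.21, in ileum and synovium. The synovial call of Btk was lost in 5 of 6 fits without a library (adjusted p up to 0.131 by edgeR). The adaptor Lat2 rose in synovium by 1.24 ± 0.09 (adjusted p = 0.000416 by edgeR). Syk itself, the kinase that binds the phosphorylated ITAM, passed in neither tissue, at 1.20 ± 0.35 in ileum (adjusted p = 0.0880) and 0.26 ± 0.24 in synovium (adjusted p = 0.477 by edgeR). Tyrobp, the adaptor that does for other receptors what Fcer1g does here, rose by 2.69 ± 0.49 in ileum (adjusted p = 0.0445) and by 0.85 ± 0.15 in synovium (adjusted p = 0.00798 by edgeR).

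On the inhibitory side, 1 of 6 genes rose in TNFdARE ileum and 3 of 6 in TNFdARE synovium, where 4.12% and 13.1% of all genes tested were higher. Inpp5d, the phosphatase of the Fcgr2b ITIM, had 1.91 ± 0.40 in ileum (adjusted p = 0.0519) and rose by 0.88 ± 0.11 in synovium (adjusted p = 0.00233 by edgeR). The phosphatase Ptpn6 had 1.63 ± 0.42 in ileum (adjusted p = 0.0725) and rose by 0.81 ± 0.16 in synovium (adjusted p = 0.0145 by edgeR). Its synovial call was lost without TNFdARE replicate 3 or WT replicate 3 (adjusted p up to 0.0530) and in the fit of 4 groups (adjusted p = 0.122 by edgeR). The docking proteins Dok1, by 1.17 ± 0.24 in ileum, and Dok2, by 1.61 ± 0.18 in synovium, were the called ones with the smallest p. In synovium the fold change of Fcgr2b, 2.35, was above those of all 6 of these genes, the highest of which was 1.61.

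Among receptors that borrow Fcer1g as their signalling chain, 1 of 4 tested rose in TNFdARE ileum and 3 of 7 in TNFdARE synovium. Of all genes tested, 4.12% were higher in ileum, and 13.1% were higher and 10.7% lower in synovium. The C-type lectin Clec4n rose by 2.96 ± 0.49 in ileum (adjusted p = 0.0410) and by 3.78 ± 0.29 in synovium (adjusted p = 0.000863 by edgeR). Clec4e, a receptor for mycobacterial glycolipid and dead cells, had 1760, 1188 and 1390 counts in TNFdARE synovium against 114, 171 and 143 in WT synovium, a fold change of 3.19 ± 0.20 (adjusted p = 0.000416 by edgeR). In the ileum Clec4e had 2777, 46 and 413 counts in TNFdARE against 3, 3 and 0 in WT. It was not called there by edgeR, and its TNFdARE libraries were far apart. TNFdARE libraries were above WT libraries in each of these comparisons. Clec5a, which pairs with Tyrobp, rose by 4.36 ± 0.69 in ileum and 2.08 ± 0.10 in synovium. Other Fc and Fc-like receptors had none of 5 called in ileum by edgeR (2 at an unadjusted p under 0.05 and 2 by DESeq2) and 3 of 8 in synovium: Fcrls (1.63 ± 0.21) and Fcrlb (3.99 ± 0.31) rose, and Fcrl1, a B cell gene, fell (-1.29 ± 0.26, adjusted p = 0.0126 by edgeR).

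**Figure D5:**
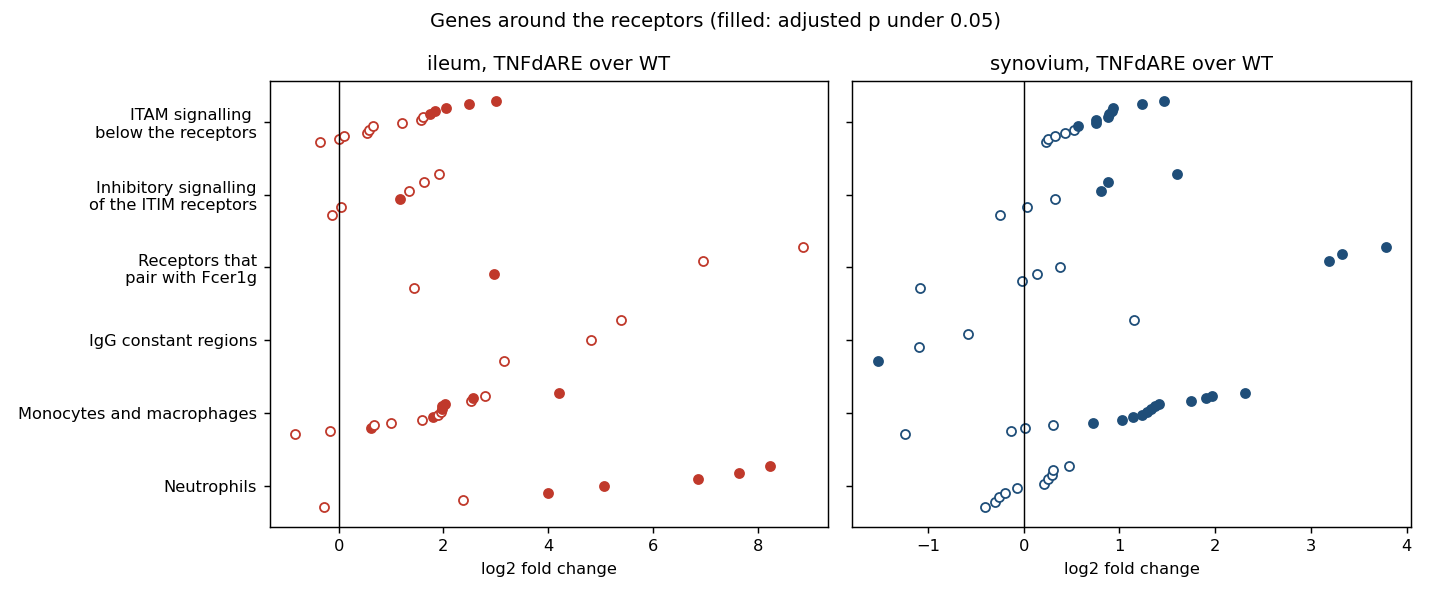
Log2 fold change of TNFdARE over WT (horizontal axes, scaled by tissue) of the tested genes of 6 lists in ileum and synovium; each point is a gene, filled where its adjusted p is under 0.05. ITAM signalling genes lie right of 0 in both tissues, except Card9 in ileum, with 5 and 9 of 14 filled, while neutrophil genes are filled in ileum (5 of 7) and not in synovium (0 of 10). Of all genes tested, 4.12% were higher in ileum and 13.1% in synovium.

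IgG, the ligand, was followed through its heavy chain transcripts. Those of the 4 IgG constant regions summed to 50.9 to 1277 CPM in TNFdARE ileum against 21.7 to 25.8 CPM in WT ileum, and to 99.1 to 312 CPM in TNFdARE synovium against 127 to 407 CPM in WT synovium. Ighg2b had 13794, 494 and 4463 counts in TNFdARE ileum and 251, 165 and 202 counts in WT ileum, and 1068, 1767 and 4628 counts in TNFdARE synovium and 3470, 1500 and 5011 counts in WT synovium. The ileum groups were separate and the synovium groups overlapped. None of 3 IgG genes tested in the ileum passed with edgeR (3 at an unadjusted p under 0.05 and 3 by DESeq2), with Ighg2b at 4.81 ± 1.1 (adjusted p = 0.0620) and Ighg1 at 5.38 ± 1.29 (adjusted p = 0.0624 by edgeR). In the synovium Ighg2c fell by 1.52 ± 0.41 (adjusted p = 0.0466), a call lost in 5 of 6 fits without a library (adjusted p up to 0.113) and with the replicate block (adjusted p = 0.118 by edgeR). Ighg1 went the other way in synovium, with 23.7 ± 9.2 CPM in TNFdARE against 10.9 ± 6.2 CPM in WT (SD, n = 3 each). Mean Ighg3 was lower there, 0.76 CPM in TNFdARE against 1.65 CPM in WT. Neither Ighg1 nor Ighg3 was called in synovium by edgeR. The difference between tissues passed for Ighg2b (-5.42 ± 1.34, adjusted p = 0.0287) and Ighg2c (-4.70 ± 1.16, adjusted p = 0.0287 by edgeR), and each lost that call in 7 of 12 fits without a library.

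Around the chromosome 1 genes, 50 kb on either side included, 13 other genes were tested in synovium and 12 in ileum. In TNFdARE synovium 3 of 13 were higher and 1 was lower, where 13.1% of all genes tested were higher and 10.7% lower. In TNFdARE ileum none of 12 was called by edgeR (5 at an unadjusted p under 0.05 and 4 by DESeq2), where 879 of 15462 genes were called. The higher ones were Fcrlb, Adamts4 (1.71 ± 0.24), a protease that cuts aggrecan, and the lincRNA Gm10522, and the lower was Pcp4l1 (-0.91 ± 0.16, adjusted p = 0.00815 by edgeR). Gm10522 (chr1:170981944-170986466, plus strand) begins 5397 bases from the 5′ end of Fcgr2b, is transcribed away from it and was singled out, as were Adamts4, Pcp4l1 and Fcrl1, after its values were seen. It had 70, 56 and 45 counts in TNFdARE synovium, against 0, 1 and 0 counts in WT synovium. In the ileum it had 6, 31 and 13 counts in TNFdARE, against 66, 86 and 80 counts in WT. The groups did not overlap in either tissue, and the order was opposite. The summed counts per library total were 155 times higher in TNFdARE synovium (exact 95% interval of counting error 27.5 to 6172), with adjusted p = 0.000819 by edgeR, and the ileum fold change was -2.25 ± 0.53 (adjusted p = 0.0560 by edgeR). The difference between tissues passed (adjusted p = 0.000965 by edgeR), although its size of 9.04 rests on WT synovium libraries at or near 0.

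Over the 12 libraries, log2 CPM of Fcer1g followed that of Pld4 (r = 0.998), Itgb2 (r = 0.997) and Cd53 (r = 0.997) most closely among 16964 genes. Fcgr3 was nearest to Pik3r5 (r = 0.994) and Itgb2 (r = 0.991), Fcgr2b to Dpep2 (r = 0.992) and Ripk2 (r = 0.991), and Fcgr1 to Cmtm3 (r = 0.995). Between members, r was 0.984 for Fcer1g and Fcgr3, 0.955 for Fcgr3 and Fcgr2b, and 0.552 for Fcgr3 and Fcgrt, while Fcgr4 had negative values with all 5 others, between -0.781 and -0.336. These r describe points that share tissue, genotype and library. With the mean of each group subtracted, which leaves the spread between replicates alone, Fcer1g was nearest to Pld4 (r = 0.993), Lat2 (r = 0.991) and Sirpb1b (r = 0.991). These r rest mainly on TNFdARE ileum, where Fcer1g had 111, 27.5 and 57.0 CPM. It had 125 to 130 CPM in TNFdARE synovium and 12.9 to 16.8 CPM in WT ileum.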

How the data were processed

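Poly-A RNA of 12 libraries was sequenced as stranded single reads of 100 cycles, per the labels' protocols. Adapter trimming software (cutadapt 1.15), the aligner Bowtie2 2.3.3.1 and the build GRCm38 come from the submitters' processing notes. Which tool and annotation gave the counts, and with which strand setting, is not given in the sources used here. Raw counts were deposited for 46603 Ensembl genes, used for all main results, and FPKM for 17046 genes, used as an alternative only, since none of the deposited FPKM is 0.

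The 6 libraries of a tissue were fitted together by edgeR 4.0.16 under R 4.3.3 (filterByExpr, TMM, robust quasi-likelihood F test, two-sided, Benjamini-Hochberg over all genes tested, threshold 0.05). Interaction and tissue contrasts used a model of the 4 groups. CPM and RPKM were computed with TMM factors over 12 libraries and GENCODE exon-union lengths. Ratios had 0.5 added to each count. The fits were also run on simulated counts with known changes and independent libraries, and that outcome is not reported here. Alternatives were RLE factors, no filter, DESeq2 1.42.0, a replicate block, library totals, single libraries left out, a fit of 4 groups (library totals were added after seeing the data) and FPKM in limma 3.58.1 with pseudocounts of 1 and 0.1.

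Same-numbered TNFdARE and WT libraries deviated together in synovium (r = 0.446, 0.284 and 0.172 over 10483 genes), which meets the rule for pairing by number. Differently numbered pairs there had r between -0.420 and 0.165, the highest for TNFdARE replicate 3 with WT replicate 2. The main synovium fits and the permutation tests of shares and ratios do not use the pairs; the block is an alternative. p-values measure the spread between libraries labelled as biological replicates. Intervals and a floor of 3 counts, 0.185 to 0.210 CPM by library, cover counting error only. Fcgr2b shares 155 exonic bases with the antisense gene Gm38204. Replicates of a group differed beyond counting noise, with a chi-square per gene of 11.2 to 92.9. The members, gene lists and tests were chosen with earlier results of these data known. Named were the members, Tnf, Syk, Tyrobp, Inpp5d, Ptpn6, IgG genes, B2m and Csf1r, called list members with the smallest p, and the genes most like a member; not every gene so selected is reported. A second promoter motif was searched and is not reported here.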

Additional observations from a re-analysis of the deposited data

Results flagged for a closer look

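The TNFdARE effect differed between synovium and ileum, by the interaction test of edgeR, in 7 of 34 genes followed in the text. None of the 7 was a receptor gene, although the 34 include the 6 receptor genes. Over all genes tested, 12.1% passed. Some of the 34 were named for a small p or after their values were seen, so these counts are not compared. Relative to ileum, the log2 effect in synovium was higher by 9.04 for Gm10522 and was lower for Fcrl1 (-3.99), Ighg2b (-5.42), Ighg2c (-4.70), Btk (-1.75), Csf1r (-1.46) and Tyrobp (-1.86). Of these 7, Tyrobp, Csf1r and Btk lost the call in 11, 10 and 9 of the 12 fits that left out a library, and Ighg2c and Ighg2b in 7 each. Gm10522 kept it in all 12. The difference for Fcrl1 was not refitted without single libraries, so its stability was not tested. 2 ratios moved in opposite directions without overlap of the groups. The log2 ratio of Fcgr3 to Csf1r was lower by -0.539 in TNFdARE ileum and higher by 0.343 in TNFdARE synovium than in WT. That of Fcgr2b to Csf1r was lower by -1.04 in TNFdARE ileum and higher by 1.21 in TNFdARE synovium. The difference of these ratios between tissues was not tested.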

How the results depend on the processing

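The synovial calls of Fcgr3 and Fcgr2b held under all 14 alternatives, with fold changes between 1.32 and 1.63 and between 2.25 and 2.46. In the ileum, where 1 of 6 receptor genes was called, none was without the filter or with FPKM at either pseudocount, while DESeq2 and the fit of 4 groups called 4, and 0 to 4 were called when libraries were left out. All genes called in ileum (879) numbered 2715 with DESeq2, 1379 with library totals, 2722 in the fit of 4 groups, 0 with FPKM and 0 to 4633 without single libraries; without any WT library every ileum call named here was lost. In synovium (3713) 2141 to 2927 were called without single libraries. The interaction (2050) had 3193 with DESeq2 and 1015 to 3506 without single libraries, and receptor genes called there numbered 1 with library totals (Fcgrt, adjusted p = 0.0387 by edgeR) and 0 to 2 without single libraries. Fcgr4, which was never called within a tissue, changed sign: in ileum with FPKM (-0.046 and -0.053 at pseudocounts of 1 and 0.1), in synovium in the fit of 4 groups (-0.022) and without TNFdARE replicate 2 (-0.12), WT replicate 1 (-0.15) or WT replicate 3 (-0.048), within -0.15 to 0.246 over fits without a library, and in the interaction without TNFdARE ileum replicate 1 (0.0077) or WT synovium replicate 2 (0.0010), within -0.363 to 0.0077. Fcgrt in synovium lost its call in 7 of 14 alternatives and Fcgr3 in ileum in 8 of 14; the cause was not tested. In synovium Btk lost its call in 5 of 6 fits without a library. No ratio moved by more than its SD, but the loss of a single library cannot shift a mean of 3 that far. That rule therefore says nothing about stability when libraries are left out. Over all settings the log2 differences of the ratios changed by -0.631 to 0.704. For Fcgrt to Fcgr2b in ileum the difference lay between -1.91 and -0.574 without single libraries. Library totals shifted the median of all genes by 0.11 in ileum and by 0.17 between WT tissues.

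The replicate block changed no call of the 6 genes within a tissue or in the interaction (1 gene called in ileum, 4 in synovium, 0 in the interaction), and 1128, 4842 and 2620 genes in all. In ileum, same-numbered libraries correlated at 0.252, 0.266 and 0.0698, which does not meet the rule for pairing by number. TNFdARE replicate 3 with WT replicate 1 had 0.147 there. Of the tissue contrasts, WT Fcgr4 lost its call under the block (adjusted p = 0.0632 by edgeR).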
